A study of Mus musculus with 3 samples.

Results

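The pre-B cell receptor and the factors of the B lineage were followed here as 10 genes: Igll1, Vpreb1, Vpreb3, Cd79a, Cd79b, Blnk, Pou2f2, Pou2af1, Bcl11a and Ebf1. They were taken by symbol, and 11 of the 26423 probes on the array carried one of these names, out of 17742 genes named in all. Bcl11a had 2 probes and the other genes had 1 each. The genes were selected on the intensities of these same arrays, because Igll1 was higher in resistant cells while Cd79b, Vpreb1, Pou2f2 and Bcl11a were lower. Their differences are therefore a description of these arrays, and no test is attached to them.

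The resistant group was B117HS on 1 array. B117HS was obtained by exposing B117P cells to stepwise higher concentrations of cytarabine (Ara-C), a cytidine analogue that blocks DNA synthesis. Selection took about 10 weeks and raised the IC50 for the drug about 10 times, per the labels. The sensitive group was 2 arrays of the parental line B117P. Both are myeloid leukaemia lines from bone marrow of the BXH-2 mouse strain, grown in culture. Each group is a single line. The labels do not state whether separate cultures were used for replicates 1 and 2, so the spread between them, on which every p-value below rests, may be technical. The lone resistant array has no spread of its own.

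The pre-B cell receptor is the signalling complex that an early B cell assembles before it has a light chain. Its immunoglobulin heavy chain pairs with a surrogate light chain made of the Igll1 and Vpreb1 products, and the Cd79a and Cd79b products carry the signal into the cell, where Blnk acts as the adaptor. Ebf1, Pou2f2, Pou2af1 and Bcl11a encode nuclear factors of B-cell development. None of these genes is a defining gene of the myeloid lineage.

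In RefSeq's GRCm38.p6 annotation Igll1 and Vpreb1 lie next to each other on chromosome 16, on the same strand, with 0 annotated genes between them. The 250 bases before each start are shown because these neighbours differed in opposite directions. Those of Vpreb3 and Blnk are shown because they hold the octamer ATGCAAAT, the letters that Pou2f2 is known to bind. Capitals mark matches, on either strand, to that octamer, to CCCNNGGG, a core of the sites Ebf1 binds, and to the E-boxes CACCTG and CAGCTG, which E proteins such as the product of Tcf3 bind. The sequences run 5′ to 3′ on the strand of the gene, and no marked match overlaps another.
Igll1, minus strand, chr16:16863986-16864235: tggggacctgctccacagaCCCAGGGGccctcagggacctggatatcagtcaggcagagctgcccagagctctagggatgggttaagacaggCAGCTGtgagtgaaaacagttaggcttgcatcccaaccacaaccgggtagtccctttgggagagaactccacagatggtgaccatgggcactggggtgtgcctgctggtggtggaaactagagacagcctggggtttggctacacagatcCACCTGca
Vpreb1, minus strand, chr16:16869256-16869505: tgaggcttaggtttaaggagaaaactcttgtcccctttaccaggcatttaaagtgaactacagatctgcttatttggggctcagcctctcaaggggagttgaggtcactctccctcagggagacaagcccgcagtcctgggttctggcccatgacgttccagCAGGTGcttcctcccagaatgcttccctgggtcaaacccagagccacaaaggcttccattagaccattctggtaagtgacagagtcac
Vpreb3, plus strand, chr10:75948050-75948299: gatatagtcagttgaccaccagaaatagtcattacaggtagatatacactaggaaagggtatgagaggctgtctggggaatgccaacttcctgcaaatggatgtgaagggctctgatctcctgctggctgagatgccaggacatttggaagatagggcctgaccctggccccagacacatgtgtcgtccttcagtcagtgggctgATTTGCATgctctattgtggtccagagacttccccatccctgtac
Blnk, minus strand, chr19:40994222-40994471: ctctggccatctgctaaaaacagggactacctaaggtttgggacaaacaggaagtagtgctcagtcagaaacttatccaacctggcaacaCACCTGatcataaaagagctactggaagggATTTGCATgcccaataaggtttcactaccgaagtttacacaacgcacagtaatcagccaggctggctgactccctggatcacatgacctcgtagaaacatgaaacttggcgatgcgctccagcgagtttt

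The Igll1 window held a CCCNNGGG match (CCCAGGGG, 231 to 224 bases before the start) and both kinds of E-box, one of them 8 to 3 bases before the start. The Vpreb1 window held 1 E-box, CAGGTG on its own strand, 88 to 83 bases before the start. The octamer, read as ATTTGCAT on the gene's strand, stood 45 to 38 bases before the start of Vpreb3 and 130 to 123 bases before that of Blnk, which also held a CACCTG. Among 32851 annotated mouse promoter windows of 250 bases, 1.6% held the octamer, 11.8% CCCNNGGG, 17.2% CACCTG and 13% CAGCTG. The table held windows for 9 of the 10 genes. Of these 9, the octamer was in 2, CCCNNGGG in 1, CACCTG in 4 and CAGCTG in 1. The motifs were chosen with the arrays' values known, and a match is a description of letters, not of binding.

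The resistant array was dimmer than the sensitive arrays, with a median intensity of 24.9 units against 58.4 and 72.5. Over 6184 probes that averaged at least 500 units, the median log2 ratio of the resistant array to the mean of the sensitive arrays was -0.76. Differences are given first as deposited, on the log2(intensity + 50) scale, which understates the change of dim probes, and then after a scaling that sets this ratio to 0. Mpo, the myeloperoxidase gene of myeloid cells, was bright in both lines, at 80904.7 units in resistant cells against 76710.0 and 84137.8 units in sensitive cells. Elane, another primary granule gene, read 11153.4 units in resistant cells against 272.1 and 349.5 units in sensitive cells. Csf1r, also on the list of myeloid markers, read 28.0 units in resistant cells against 2412.8 and 3008.7 units in sensitive cells. The myeloid markers went both ways, as given below. B-lineage genes were mixed. Pax5, the commitment factor, read 26.4 units in resistant cells against 31.1 and 72.5 units in sensitive cells, and Ms4a1, which encodes CD20, read 7.78 against 4.97 and 5.28 units. Cd22, Cd79b, Blnk and Vpreb1 read well above 50 units on both sensitive arrays, as given below.

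**Figure D1:**
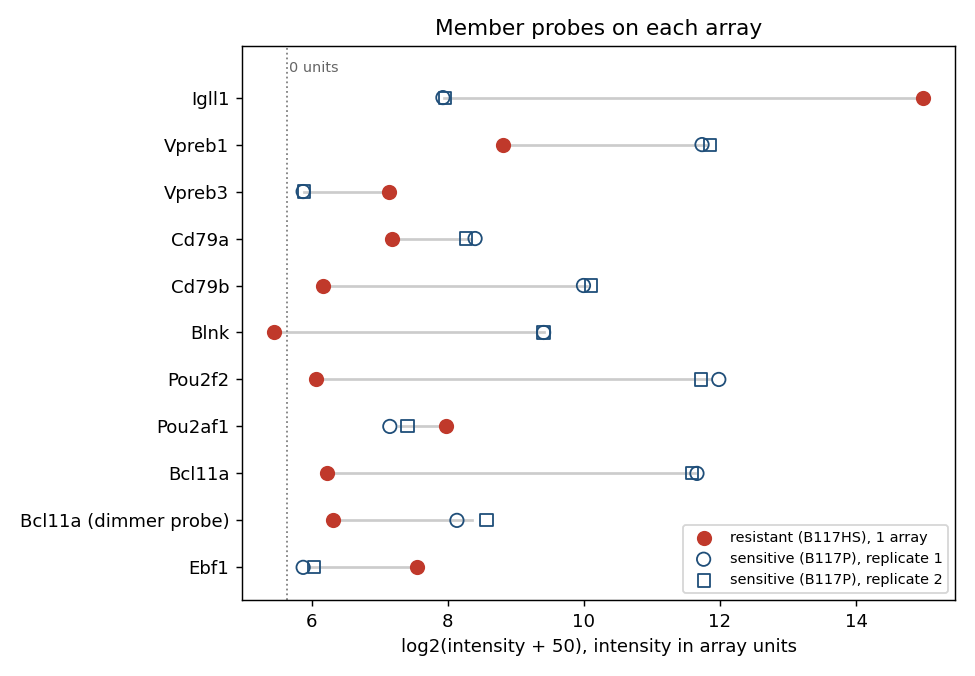
Each row is a probe of one of the 10 genes and the horizontal axis is log2(intensity + 50), with intensity in array units. The filled red point is the resistant array, the open circle and square are sensitive replicates 1 and 2, and the dotted line marks 0 units. On all 11 probes the red point lies outside the range of the sensitive points, as the resistant value did on 88% of all probes on the array. It lies to the right for Igll1, Vpreb3, Pou2af1 and Ebf1 and to the left for the others.

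The genes of the surrogate light chain went in opposite directions. Igll1, which encodes lambda5, the part that resembles a constant domain, read 32383.7 units in resistant cells, against 193.8 and 199.2 units in sensitive cells (196.5 ± 3.79, SD, n = 2). The intensity, without the offset, was 164.8 times the sensitive mean as deposited and 279.1 times after scaling, and the log2 differences with the offset were 7.04 and 7.80. Of all 17742 genes, 9 had a larger positive difference than Igll1 as deposited. Vpreb1, which encodes the variable-like partner of lambda5, read 399.8 units in resistant cells, against 3363.2 and 3645.8 units in sensitive cells (3504.5 ± 199.8). Its log2 difference was -2.98 as deposited and -2.29 after scaling. The ratio of the intensities themselves, without the offset of 50, was 0.114 as deposited and 0.193 after scaling. The groups did not overlap for either gene, as they did not on 88% of all probes. The sensitive arrays lay within 0.11 log2 units of each other for both genes. Vpreb2, a close copy of Vpreb1 in the mouse genome, had no probe named here, and signal from these copies cannot be told apart without the probe sequences, which were not used here.

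Vpreb3, whose product associates with newly made immunoglobulin chains inside early B cells, was dim throughout. It read 90.2 units in resistant cells, against 8.70 and 9.23 units in sensitive cells, a log2 difference of 1.25 as deposited and 1.78 after scaling. The resistant value lay above both sensitive values, which were near 0. With an offset of 100 in place of 50 the Vpreb3 difference was 0.80, and with a floor of 50 it was 0.85, both short of 1 log2 unit.

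All 3 genes of the signalling arm read lower in resistant cells, by very different amounts. Cd79b, which encodes the Ig-beta chain of the receptor's signalling pair, read 21.8 units in resistant cells, against 970.3 and 1048.6 units in sensitive cells, a log2 difference of -3.88 (-3.61 after scaling). Blnk, the adaptor that links Syk to phospholipase C, read -6.22 units in resistant cells, against 629.9 and 629.2 units in sensitive cells. Its log2 difference was -3.96 as deposited and -4.11 after scaling, and a background-subtracted value below 0 leaves no measured level on the resistant array. The scaling moved that negative value further below 0, so the larger scaled difference is not a larger measured fall. The resistant value of each gene was far below both sensitive values. Cd79a, which encodes Ig-alpha, the partner of Ig-beta, read 94.9 units in resistant cells, against 288.2 and 257.2 units in sensitive cells. The log2 difference of Cd79a was -1.15 as deposited and -0.61 after scaling, which is short of 1 log2 unit.

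Of the nuclear factors, Pou2f2 and Bcl11a read no more than 29.6 units in resistant cells on any probe, while Ebf1 and Pou2af1 read somewhat higher there than in sensitive cells. Pou2f2, which encodes the octamer-binding factor Oct2, read 17.1 units in resistant cells, against 3999.3 and 3322.6 units in sensitive cells, a log2 difference of -5.78 (-5.55 after scaling). The resistant reading was below the median of its array, and with an offset of 16 the Pou2f2 difference was -6.79. Bcl11a, a zinc-finger repressor that early B cells need, read 24.9 units in resistant cells on its brighter probe, against 3191.7 and 3035.1 units in sensitive cells (log2 difference -5.40, and -5.10 after scaling). The other Bcl11a probe read 29.6 units in resistant cells, against 231.1 and 329.8 units in sensitive cells, a log2 difference of -2.04 (-1.70 after scaling). On both Bcl11a probes the resistant value lay well below the sensitive values, by unequal amounts.

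Ebf1, which encodes the early B-cell factor that acts upstream of Pax5, read 136.9 units in resistant cells, against 8.70 and 15.8 units in sensitive cells. The log2 difference of Ebf1 was 1.59 as deposited and 2.19 after scaling. Pou2af1, which encodes the coactivator that binds Oct1 and Oct2 on the octamer, read 200.7 units in resistant cells, against 91.9 and 120.0 units in sensitive cells. The Pou2af1 difference was 0.69 as deposited and 1.33 after scaling, so it reached 1 log2 unit only on the scaled values. Ebf1 and Vpreb3 were both near 0 on the sensitive arrays, and Pou2af1 was measured above 50 units on all 3 arrays.

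**Figure D2:**
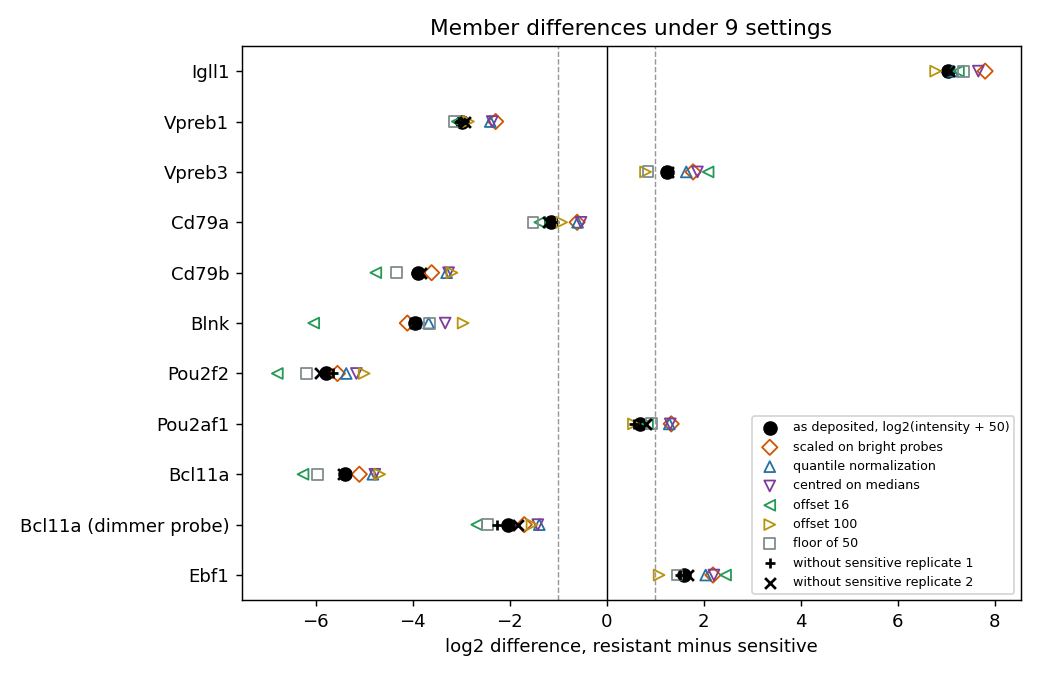
Each row is a probe of one of the 10 genes and the horizontal axis is the log2 difference, resistant minus sensitive, with dashed lines at -1 and 1. The black point is the value as deposited and the other marks are 8 alternative settings, which left every probe on its own side of 0. Igll1 ranged from 6.78 to 7.80, Vpreb1 from -3.13 to -2.29 and Cd79a from -1.52 to -0.53.

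By size alone, meaning 1 log2 unit or more above both sensitive arrays or below both, 3 of the 10 genes were higher and 6 lower in resistant cells as deposited, where 5.23% and 18.5% of all genes were. After scaling, 4 were higher and 5 lower, where 9.98% and 8.75% of all genes were. Pou2af1 was the gene gained on the higher side and Cd79a the gene lost on the lower side. The resistant value lay outside the range of the sensitive values on all 11 probes, as it did on 88% of all probes. The median difference of the 10 genes was -2.07 as deposited, beside -0.33 for all genes, and -1.45 after scaling, beside -0.06. Since the genes were picked for these differences, the counts and medians describe the choice. Between the sensitive arrays themselves no probe of the set differed by more than 0.43 log2 units, the dimmer Bcl11a probe, while 152 genes (0.857%) differed by at least 1.

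Genes around Igll1 and Vpreb1 did not share the size of either difference. The 5 nearest measured genes on each side were compared in a limma fit over all genes, in which a call asked for a Benjamini-Hochberg adjusted p under 0.05 and the size rule above. As deposited, 928 genes (5.23%) were called higher and 3284 (18.5%) lower. After scaling, 1744 (9.83%) were called higher and 1513 (8.53%) lower, and 925 (5.21%) and 1495 (8.43%) were called on both scales. In what follows a gene "rose" or "fell" if both scales called it. When values under 50 were raised to 50 and no offset was added, limma called 133 genes higher and 26 lower, and of the genes named below as having risen or fallen it kept the call of Pdgfra alone. Of the 10 neighbours, the deposited scale gave 1 call higher and 3 lower, and the scaled values gave 2 higher and 0 lower. At an unadjusted limma p under 0.05 the scaled values gave 2 higher and 3 lower. Among the lower genes, Ppil2 at -1.06 also passed the adjusted threshold and missed only the size rule.

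Fgd4, which encodes an activator of the small GTPase Cdc42, rose to 371.8 units in resistant cells, against 120.5 and 154.3 units in sensitive cells (log2 difference 1.18, limma adjusted p = 0.006). The call was lost with an offset of 100 (0.99), and it rests on the brightest probe: its other 3 probes read 88.7, 143.1 and 24.9 units in resistant cells, and the resistant value of 2 of them lay within the sensitive range. Ppm1f, a protein phosphatase gene, had a log2 difference of 0.87 as deposited and was called after scaling, at 1.63. The cyclophilin-like gene Ppil2 (-1.78, and -1.06 after scaling), 2610318N02Rik (-1.47) and 4933404G15Rik (-1.35) were called lower as deposited but not after scaling. The other 2610318N02Rik probe read the opposite way, at 54.4 units in resistant cells against 12.4 and 22.4 units in sensitive cells. Over the mean of the 2610318N02Rik probes the difference was -0.42. Top3b, the first measured gene beyond Vpreb1, read 2509.1 units in resistant cells, against 3693.7 and 2169.8 units in sensitive cells, so its groups overlapped. Rpl31-ps12, the first measured gene beyond Igll1, differed by -0.58, Dnm1l by -0.54, Olfr19 by -0.14 and Mir130b by -0.03, none of them called.

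**Figure D3:**
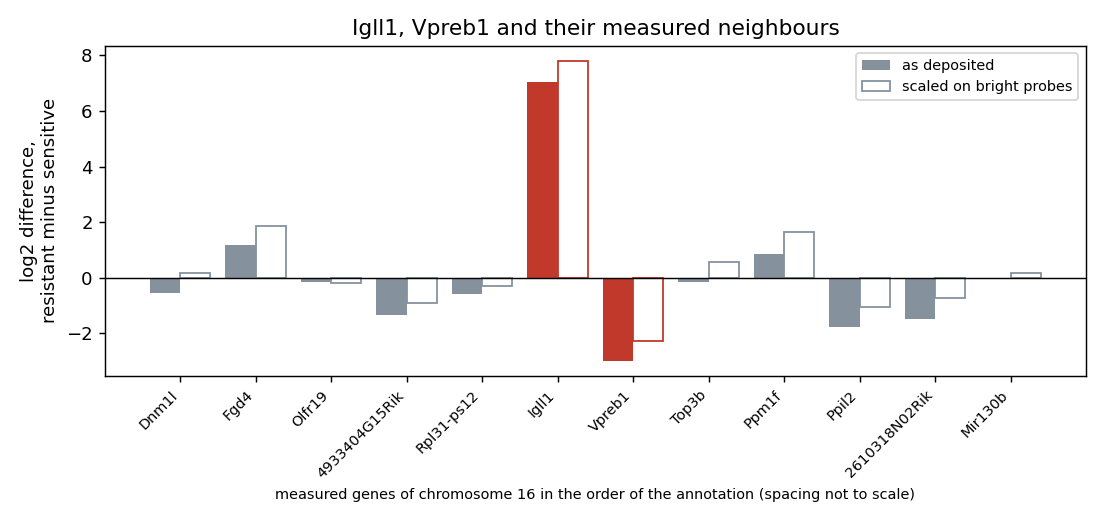
Bars give the log2 difference, resistant minus sensitive, of 12 measured genes of chromosome 16 in the order of the annotation, filled as deposited and open after scaling on bright probes. Igll1 at 7.04 and Vpreb1 at -2.98 are in red. The neighbours in grey lie between -1.78 and 1.18 as deposited.

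Among other genes of receptor signalling, 2 of 22 measured rose and 5 fell on both scales, where 5.21% and 8.43% of all genes did. As deposited 2 were called higher and 9 lower, where 5.23% and 18.5% of all genes were. After scaling 3 were called higher and 5 lower, where 9.83% and 8.53% of all genes were. The median of the list was -0.38 as deposited, beside -0.33 for all genes, and 0.09 after scaling, beside -0.06. Cd22, an inhibitory co-receptor of B cells, fell to 132.2 units in resistant cells, against 959.1 and 933.9 units in sensitive cells (log2 difference -2.45, SE 0.24, limma adjusted p = 7.73e-06). Pik3cd, the leucocyte PI3-kinase catalytic subunit, fell to 3433.1 units, against 16279.3 and 17911.0 units in sensitive cells (-2.30). The adaptor genes Sh3bp2 and Grb2 fell by 2.24 and 2.18 on the log2 scale.

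Prkcb, the protein kinase C isoform that relays the receptor's signal to NF-kB, rose to 381.1 units in resistant cells, against 8.70 and 10.6 units in sensitive cells (log2 difference 2.85, SE 0.26, limma adjusted p = 3.90e-06). Nfatc1, a calcium-regulated transcription factor, rose on its brightest probe (791.8 units against 181.4 and 244.0 units in sensitive cells, log2 difference 1.69). Its other 2 probes read the opposite way, at 180.4 units in resistant cells against 268.4 and 320.5 in sensitive cells, and at 130.7 against 426.1 and 383.8, and over the mean of its probes the difference was -0.07. Btk, the kinase downstream of Blnk, differed by -0.30 as deposited and 0.45 after scaling (limma adjusted p = 0.242 and 0.100). Blk, a B-cell Src-family kinase, read between 5.28 and 12.4 units on the 3 arrays and was not called.

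More of the lineage regulators fell than rose. Of 23 measured, 1 rose and 7 fell on both scales, where 5.21% and 8.43% of all genes did. As deposited 1 was called higher and 14 lower, where 5.23% and 18.5% of all genes were. After scaling 1 was called higher and 7 lower, where 9.83% and 8.53% of all genes were. The list's median was -1.43 as deposited, beside -0.33 for all genes, and -0.96 after scaling, beside -0.06. Mef2c, a MADS-box factor that acts in B-cell and myeloid progenitors, fell to 60.7 units in resistant cells, against 2706.0 and 3851.5 units in sensitive cells (log2 difference -4.89, SE 0.25, limma adjusted p = 4.72e-08). Its other probe read 98 units in resistant cells, against 2624.0 and 1801.8 units in sensitive cells. Sox4, a factor that pro-B cells need, fell to 197.6 units in resistant cells, against 4093.7 and 5600.6 units in sensitive cells (-4.29).

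Id2, an inhibitor of E proteins, fell by 3.19 on the log2 scale and Bcl6, the repressor of germinal-centre B cells, fell by 2.79. Gfi1, a repressor of granulocyte and lymphoid progenitors, was the gene of this list that rose, to 833.8 units in resistant cells, against 241.0 and 259.8 units in sensitive cells (log2 difference 1.56, limma adjusted p = 3.77e-04). Pax5 differed by -0.38 (adjusted p = 0.251) and was not called. Tcf3, the gene of the E proteins E12 and E47, was not called, with -0.58 as deposited and 0.17 on the scaled values.

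Of 22 measured genes of early and mature B cells, 1 rose and 4 fell on both scales, where 5.21% and 8.43% of all genes did. As deposited 1 was called higher and 7 lower, where 5.23% and 18.5% of all genes were. After scaling 1 was called higher and 4 lower, where 9.83% and 8.53% of all genes were. Their median was -0.71 as deposited, beside -0.33 for all genes, and -0.42 after scaling, beside -0.06. Il7r, the receptor subunit for the main growth factor of mouse pro-B cells, fell to 10.9 units in resistant cells, against 2052.5 and 1235.9 units in sensitive cells (log2 difference -4.76, SE 0.30, limma adjusted p = 2.16e-07). Dntt, the polymerase that adds bases at immunoglobulin gene joints, fell to 4.67 units, against 463.4 and 304.7 units in sensitive cells (-2.96), and its other probe read 9.33 against 120.5 and 89.7 units. Cd24a and the MHC class II gene H2-Aa fell by 3.43 and 2.52 on the log2 scale.

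Cxcr5, the receptor that guides mature B cells into follicles, was the gene of this list that rose, to 844.7 units in resistant cells, against 8.70 and 22.4 units in sensitive cells (log2 difference 3.78, SE 0.30, limma adjusted p = 1.33e-06). Rag1 and Rag2, which cut the immunoglobulin loci, read -4.67 and 6.22 units in resistant cells and no more than 22.4 units in sensitive cells, and neither was called. Rag1 passed the adjusted threshold on both scales and missed only the size rule (log2 difference -0.62, and -0.73 after scaling). With an offset of 16 Rag1 was called lower (-1.65). The Rag2 difference was -0.24 as deposited. In this list 8 of 22 genes read below 50 units on all 3 arrays, among them Ms4a1. Ighm had no probe named here, so the heavy chain that pairs with the surrogate light chain was not analysed.

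**Figure D4:**
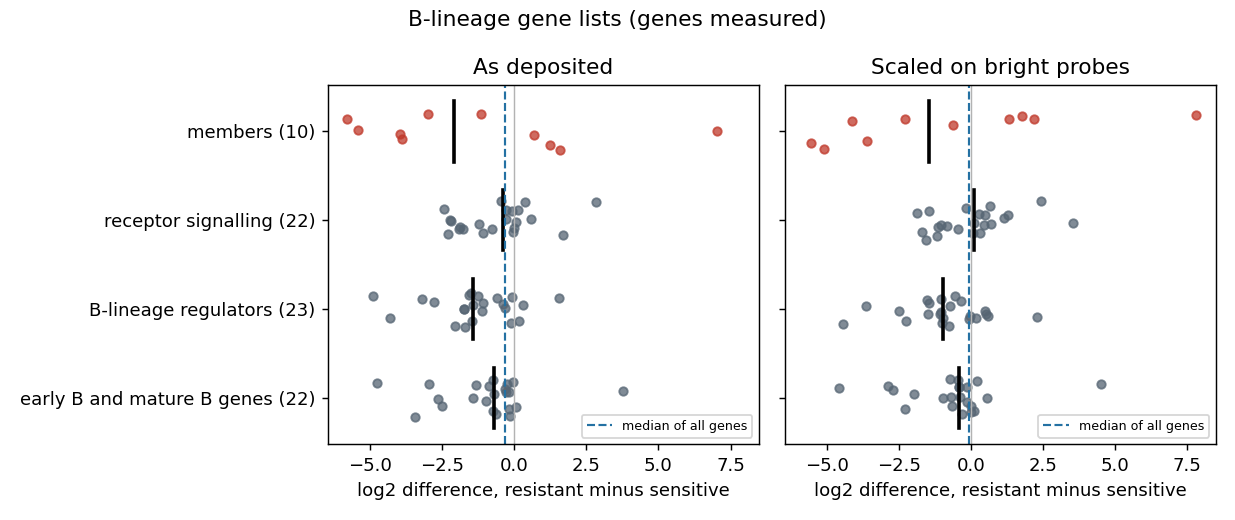
Each point is a gene and the horizontal axis is its log2 difference, resistant minus sensitive, as deposited on the left and scaled on bright probes on the right, with vertical jitter only to separate points. Black bars are list medians (-2.07, -0.38, -1.43 and -0.71 from the top as deposited) and the dashed line is the median of all genes, -0.33 as deposited. The 10 genes of the set, in red, were chosen for their differences.

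Markers of other cell types were measured on the same arrays, and their part in these differences was not tested. Of all genes, 5.21% rose and 8.43% fell, and the marker counts below stand beside these shares. All sums of markers are of intensities as deposited, without scaling and with negative values left out, and the resistant array was the dimmer on that scale. For plasmacytoid dendritic cells, which also use Bcl11a, 1 of 10 measured markers rose and 3 fell, with summed intensities of 24612.1 units in resistant cells against 14236.8 and 18964.9 units in sensitive cells. Bst2 alone gave 22526.1 units in resistant cells, against 4646.6 and 9919.0 units in sensitive cells. Siglech, which defines those cells, read -4.67 units in resistant cells, against 72.1 and 58.0 units in sensitive cells, while the interferon factor Irf7 and Cox6a2 both had a log2 difference of -3.84. For plasma cells, 2 of 8 markers rose, Xbp1 (1.83) and Fkbp11 (2.50), and Derl3 fell by 2.66. Their sum was 69038.9 units in resistant cells, against 17263.3 and 20322.2 units in sensitive cells, mostly Xbp1, while Prdm1 and Jchain read -1.56 and 9.33 units in resistant cells and were not called. Prdm1 read 32.3 and 42.2 units in sensitive cells. It passed the adjusted threshold on both scales and missed only the size rule (-0.85, and -0.88 after scaling). With an offset of 16 Prdm1 was called lower (-1.88). After quantile normalization the calls of Siglech, Irf7, Bst2 and Derl3 were lost, and that of Siglech was also lost after centring (-0.72) and with an offset of 100 (-0.79).

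For T cells, 0 of 10 markers rose in limma and 1, Cd5, fell (log2 difference -2.52). At an unadjusted p under 0.05, 0 were higher and 4 lower as deposited, and 1 higher and 3 lower after scaling. Sums were 454.2 units in resistant cells against 1018.8 and 995.9 units in sensitive cells. Cd3d was at or below 5.28 units on all 3 arrays. For erythroid cells, 0 of 7 markers were called on both scales in limma, and Tfrc alone was called after scaling, with 1 higher and 3 lower at an unadjusted p under 0.05 as deposited, and 1 higher and 1 lower after scaling. Their sum was 17154.7 units in resistant cells, against 7748.9 and 8821.6 units in sensitive cells, mostly Tfrc, with Klf1 and Epor at 34.2 and 0 units in resistant cells. For stromal cells, 1 of 10 markers rose, Pdgfra (1.61), and 2 fell, Fn1 (-2.80) and Pdgfrb (-1.94), whose call was lost after quantile normalization. Their sum was 205.3 units in resistant cells, against 771.5 and 741.3 units in sensitive cells, and Col1a2 was at or below 4.97 units on all 3 arrays. For the myeloid lineage, 3 of 15 markers rose and 2 fell, with sums of 160286.5 units in resistant cells against 120204.2 and 133326.8 units in sensitive cells. Fcgr3 (5.97), Elane (4.96) and Ctsg (1.14) rose, and Csf1r (-5.14) and Cd68 (746.7 units in resistant cells against 2592.9 and 3818.6 units in sensitive cells) fell. The calls of Ctsg and Cd68 were lost after quantile normalization (1.08 and -1.42). In cultures measured as a whole, fewer cells carrying a transcript and less of it per cell cannot be told apart.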

How the data were processed

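Per the labels' protocols, amino-allyl antisense RNA was made from total RNA and labelled with Cy5 for 1-colour arrays. The authors deposited 1 background-subtracted intensity per probe and array on a linear scale. Neither the image software nor any scaling is given in the sources used here. No flags were used. Of 26423 probes, 6046 had no symbol and 38 a symbol outside the GRCm38.p6 annotation. The brightest probe by mean stood for each gene. Intensities were taken as log2(intensity + 50), and limma 3.58.1 in R 4.3.3 (lmFit, eBayes with a variance trend) was fitted to all 17742 genes. The sensitive arrays gave 1 residual degree of freedom, beside 11.0 prior ones, and the same spread was assumed for the resistant array. Every gene of the size asked also passed the adjusted p as deposited.

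Tested on simulated data (17742 genes, 20 simulations, 200 changed genes each), the fit recovered 94.8% of changes of 1.5 and 100.0% of changes of 2 log2 units, with 2.65 unchanged genes called on average. These simulations drew every array with the spread of the same fit and lacked the dimness of the real resistant array. The rates therefore hold only under that spread, and do not tell how many of the real calls are false. Alternatives were scaling on bright probes, quantile normalization, centring, offsets of 16 (very negative values raised so that a log exists) and 100, a floor of 50, leaving out the dimmest 25% of genes, the mean of a gene's probes, no variance trend and leaving out each sensitive array.

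The members, lists and motifs were chosen with earlier results of these data known. Named genes were every member probe and every neighbour of Igll1 and Vpreb1. From each list they were up to 4 genes called on both scales in each direction, the first 2 not called, and the brightest marker. Ms4a1, Ppil2's scaled value and the values of Rag1 and Prdm1 beside the size rule were singled out after values were seen. No genes were ranked by likeness to a member.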

Additional observations from a re-analysis of the deposited data

How the results depend on the processing

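None of the 8 alternatives that give a value per member probe changed the direction of any of the 11 member probes (88 values). The number of probes at least 1 log2 unit from each sensitive array stayed at 8 to 10, beside 10 as deposited. The calls over all genes depended on scaling. Genes called higher numbered 928 as deposited, 1744 after scaling on bright probes and 1697 after centring, and genes called lower numbered 3284 as deposited and 1513, 1219 and 1273 after bright-probe scaling, quantile normalization and centring. The share of calls that were higher was 22% as deposited and 53.5%, 52.3% and 57.1% under those 3. The regulators had 15 calls as deposited and 8, 9 and 7 under them, the early and mature B genes 8 as deposited and 5 after either bright-probe scaling or quantile normalization. The neighbours of Igll1 and Vpreb1 had 4 as deposited, 2 after bright-probe scaling, centring or an offset of 100, and 1 with the mean of a gene's probes. With a floor of 50, where 35.7% of genes had both sensitive arrays at or below it, limma called 133 genes higher and 26 lower, although 981 and 3517 reached the size. It called 0 receptor signalling genes, 0 regulators, 0 early and mature B genes and 0 neighbours, of which 11, 14, 7 and 5 had an unadjusted p under 0.05. Without sensitive replicate 1 or 2, by size alone, 976 and 1108 genes were higher and 4288 and 3625 lower, and the lists had 11 and 11, 16 and 15, 9 and 8, and 4 and 4.

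Of 61 other named genes, 1 called gene changed sign: Nfatc1 (-0.07 with the mean of its probes). Values that were not called changed sign after bright-probe scaling for Btk (0.45), Dnm1l (0.18), Jchain (0.07), Klf1 (0.08), Mir130b (0.18), Tcf3 (0.17) and Top3b (0.58). After quantile normalization they did so for Btk (0.15), Dnm1l (0.07), Jchain (0.06), Klf1 (0.37), Mir130b (0.19), Mpo (-0.19), Pax5 (0.20), Rpl31-ps12 (0.01) and Top3b (0.27). After centring they did so for Btk (0.32), Cd3d (0.41), Col1a2 (0.44), Dnm1l (0.08), Epor (0.21), Jchain (0.55), Klf1 (0.34), Mir130b (0.59), Olfr19 (0.48), Pax5 (0.24), Rag1 (0.00), Rag2 (0.38), Rpl31-ps12 (0.05), Tcf3 (0.04) and Top3b (0.45). Leaving out sensitive replicate 1 turned Jchain (0.03), Mpo (-0.06), Prtn3 (-0.02) and Top3b (0.21), which without replicate 2 had -0.18, 0.08, 0.11 and -0.55, and leaving out replicate 2 turned Mir130b (0.06, and -0.12 without replicate 1). The cause was not tested. With 1 resistant array against 2 sensitive arrays, no paired analysis was possible. Signals near 0 units, such as those of Blnk, Pou2f2 and Cd79b in resistant cells and of Ebf1 and Vpreb3 in sensitive cells, limit how large those differences can be measured.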
